A study of Mus musculus with 8 samples.

Results

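Top2a, Dync1h1, Dhx9, Rest and Son are 5 of the 21887 protein-coding genes in the RefSeq mm10 gene table. They were chosen by their H3K36me3 peaks in Setd2 knockdown cells, which shared no base with a control peak. The values that chose them are descriptions of these peak lists and support no test. The cells were mouse embryonic stem cells (mESC), feeder-free spheres kept without serum in 2i medium, which holds the MEK inhibitor PD0325901 (1 µM), the GSK3 inhibitor CHIR99021 (3 µM) and leukaemia inhibitory factor (1000 U/ml). Per the labels' growth protocol, the cells of all groups carried a doxycycline-inducible knockdown of Setd2; whether the control cells held the same hairpin or a control hairpin is not clear from the labels. Knockdown cells received 1 µg/ml doxycycline for 4 days, and control cells received none, so an effect of doxycycline itself and an effect of the knockdown cannot be told apart. H3K36me3 ChIP and input were each sequenced in 2 replicates per condition, 8 libraries in all. The replicates were merged by the authors before peaks were called, which left 1 peak list per condition, no spread between replicates and no test between conditions. The labels do not say whether the replicates came from separate cultures, or whether the line was derived from a single clone.

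H3K36me3, the trimethylated form of lysine 36 on histone H3, is laid down over gene bodies by SETD2, which travels with elongating RNA polymerase II. The mark is usually densest towards the 3′ side of transcribed genes and low at their promoters. The 5 genes encode proteins of different nuclear and cytoplasmic machines: a DNA topoisomerase, a microtubule motor, an RNA helicase, a transcriptional repressor and an RNA-processing protein of nuclear speckles. In bulk chromatin, fewer marked cells and less mark per cell cannot be told apart.

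The merged ChIP libraries kept 29416169 tags in knockdown and 36244210 in control after duplicate removal, a mean of 15.7 and 19.4 tags per kb of effective genome. Tag densities below are given as multiples of that mean, each for its own library. The knockdown list held 3040 peaks over 5.67 Mb and the control list 30634 peaks over 110.7 Mb. Setd2 itself had no peak in knockdown and 11 in control, over 40.1% of its length, which describes its chromatin and not its transcript. The embryonic stem cell label was set against marker genes: 16 of 20 stem cell markers had a control peak, compared with 3 of 14 fibroblast, 1 of 10 primitive endoderm, 3 of 9 neuroectoderm and 2 of 8 mesoderm markers, and with 41.2% of all protein-coding genes. In knockdown the counts were 4 of 20, 1 of 14 and 0 in the remaining 3 lists, against 4.95% of all protein-coding genes.

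The start regions of the genes are shown because none of the peaks in their bodies reached them. The sequences below are the RefSeq bases of build GRCm38.p6 just outside each gene's span, read 5′ to 3′ on the gene's strand, and capitals mark each CCAAT, in either orientation (CCAAT or ATTGG). The stretches lie at chr11:99024200-99024439 on the minus strand for Top2a, chr12:110601145-110601394 on the plus strand for Dync1h1, chr1:153487689-153487910 on the minus strand for Dhx9 and chr16:91647574-91647823 on the plus strand for Son.
Top2a: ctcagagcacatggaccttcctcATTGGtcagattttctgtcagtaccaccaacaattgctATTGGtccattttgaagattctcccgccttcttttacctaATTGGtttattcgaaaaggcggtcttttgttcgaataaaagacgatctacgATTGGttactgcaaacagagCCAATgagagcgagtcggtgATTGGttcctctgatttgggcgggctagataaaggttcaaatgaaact
Dync1h1: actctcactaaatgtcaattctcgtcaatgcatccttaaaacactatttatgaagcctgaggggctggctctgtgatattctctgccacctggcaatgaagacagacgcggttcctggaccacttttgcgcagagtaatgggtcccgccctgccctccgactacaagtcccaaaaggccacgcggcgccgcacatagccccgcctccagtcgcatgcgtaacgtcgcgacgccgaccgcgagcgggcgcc
Dhx9: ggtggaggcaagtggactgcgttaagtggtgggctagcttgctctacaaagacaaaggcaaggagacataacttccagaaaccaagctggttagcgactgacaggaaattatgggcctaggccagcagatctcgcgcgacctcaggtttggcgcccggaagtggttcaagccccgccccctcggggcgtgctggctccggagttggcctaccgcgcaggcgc
Son: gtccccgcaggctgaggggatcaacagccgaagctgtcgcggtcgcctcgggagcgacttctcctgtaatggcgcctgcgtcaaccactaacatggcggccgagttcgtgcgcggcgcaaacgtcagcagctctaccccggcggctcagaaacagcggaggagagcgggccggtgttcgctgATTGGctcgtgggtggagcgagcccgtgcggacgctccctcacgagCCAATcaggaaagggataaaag

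The 4 start regions differed in composition. In the full 300-base windows, which also take in the first 50 transcribed bases, CCAAT occurred 6 times in Top2a, 3 times in Son and 0 times in Dync1h1 and Dhx9. Of the 17492 protein-coding genes with such a window, 39.0% held at least 1 CCAAT on either strand, 4.20% at least 3 and 0.0915% at least 6. Besides CG, CCAAT was the only motif counted, and these counts are descriptions without a test. The dinucleotide CG occurred 16 times in Top2a, 30 in Dync1h1, 22 in Dhx9 and 31 in Son, against a median of 13 over all genes. The nearest knockdown peak began 7449 bp from the transcript start in Top2a, 7617 bp in Son, 12041 bp in Dhx9 and 16251 bp in Dync1h1.

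The first comparison asked where the mark was called in these genes after knockdown and in control. Top2a, Dync1h1, Dhx9 and Rest had peaks in knockdown and not a base under a control peak, whereas Son had a knockdown peak towards its 5′ end and a control peak over its 3′ end. Having a knockdown peak midpoint and no control peak midpoint was a property of 0.585% of protein-coding genes (128 of 21887), and of 4 of the 5 genes, a count that their selection fixed. By the same midpoint rule the share was 0.621% (37 of 5957) among the genes as long as these 5, from the shortest to the longest, and 45% of those genes had no control peak midpoint. With not a single base under a control peak as the limit, the share over all protein-coding genes was 0.461% (101 of 21887). Son thus differs from the others: what was without a control counterpart there was the peak and not the gene. Among the 101, Top2a ranked 1, Dync1h1 2, Dhx9 6 and Rest 7 by knockdown-covered length. That length comes from the peaks they were chosen for, so the ranks are no independent result.

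**Figure D1:**
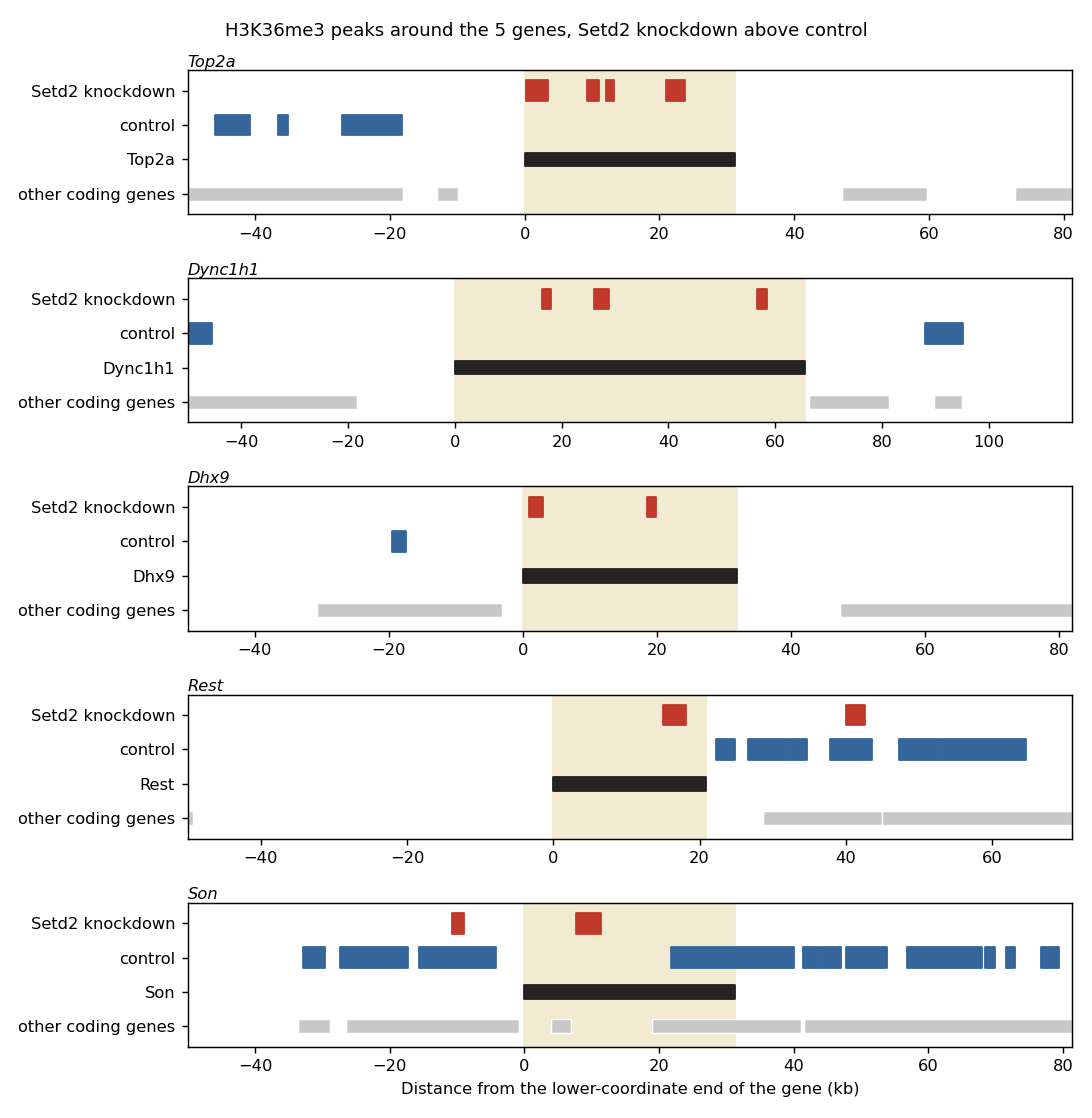
H3K36me3 peaks within 50 kb of each gene, with Setd2 knockdown peaks (red) above control peaks (blue), the gene (black) and other protein-coding genes (grey), plotted by distance in kb from the lower-coordinate end of the gene. The 11 knockdown peaks in the 5 shaded gene bodies have no control peak at the same position, and a control peak enters a gene body in Son alone.

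Top2a encodes topoisomerase II alpha, which passes DNA strands through each other during replication and mitosis. The gene lies on chromosome 11 from 98992947 to 99024199 on the minus strand. It carried 4 knockdown peaks over 9089 bp, or 29.1% of its length, and 0 control peaks. From the 5′ end of the gene, the midpoints lay at 28.4%, 59.6%, 67.5% and 93.9% of its length. The peak next to the 3′ end, from 98993223 to 98996492, was the strongest by caller score, with 134 tags, a density of 2.61 times the mean (exact Poisson 95% interval 2.18 to 3.09) and a score of 215. The score is the p-value of the caller as minus 10 log10 units. The other 3 peaks had 2.22 to 2.56 times the mean and scores of 56.5 to 109. The coding neighbours Gjd3, a gap junction gene, and Igfbp4, which encodes a binding protein for insulin-like growth factors, had a peak in neither list.

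Dync1h1 encodes the heavy chain of cytoplasmic dynein, the motor that moves cargo towards microtubule minus ends. It is the longest of the 5 genes, with 65.6 kb on chromosome 12 from 110601395 to 110666944 on the plus strand. It carried 3 knockdown peaks over 6512 bp, or 9.93% of its length, and 0 control peaks. Their midpoints lay at 26.2%, 41.8% and 87.9% of the gene from its 5′ end. Densities were 2.25 (1.73 to 2.87), 2.64 (2.18 to 3.16) and 2.40 (1.88 to 3.03) times the mean, with intervals that overlap, so the peaks within the gene could not be ordered at this depth. The upstream neighbour Ppp2r5c, a regulatory subunit gene of protein phosphatase 2A, had 0 knockdown and 10 control peaks, and the downstream 1700001K19Rik had a peak in neither list.

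Dhx9 encodes a helicase that unwinds RNA and RNA-DNA hybrids. The gene spans 31.9 kb of chromosome 1 from 153455756 to 153487688 on the minus strand. It carried 2 knockdown peaks over 3475 bp, or 10.9% of its length, and 0 control peaks. The peak at 94.0% of the gene from its 5′ end had 87 tags, 2.67 times the mean (2.14 to 3.29) and a score of 136. Its last 39 bp covered 53.4% of a tRNA gene, n-TIaat13, which lies inside Dhx9, and tRNA genes have near-identical copies elsewhere. For reads with several matches, the treatment was not given in the sources used here. The second peak, at 40.0%, had 48 tags and a score of 50.8, just inside the caller's limit, since the lowest score in the knockdown list was 50.01. Of the neighbours, Shcbp1l had 0 knockdown peaks and 1 control peak, and Npl, a sialic acid lyase gene, had a peak in neither list.

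Rest encodes the zinc finger repressor that keeps neuronal genes off in other cells. It spans 20.9 kb of chromosome 5 from 77265494 to 77286432. Its single knockdown peak, from 77280482 to 77283697, covered 15.4% of the gene, against 0 bp in control. With 172 tags it was the densest of the 11 peaks, at 3.40 times the mean (2.91 to 3.95), and denser than 98.9% of the 377 knockdown peaks of like length (within 25%). Its caller fold over local background, 3.33 in the authors' deposited table, was nevertheless the lowest of the 11, and its score was 100. On a Poisson reading of tags and score, the caller's background over this peak was 2.00 times the genome mean, compared with 0.964 to 1.38 for the other 10. The control list resumed 1326 bp beyond the higher-coordinate end of the gene. Noa1, the neighbour on that side, a mitochondrial GTPase gene, was covered over 16.0% in knockdown and 72.1% in control. There a knockdown peak of 2.38 times the mean lay inside a control peak of 2.88 times the mean, each in its own library.

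Son encodes a large protein of nuclear speckles that supports splicing of weak introns. It spans 31.4 kb of chromosome 16 from 91647824 to 91679192 on the plus strand. Its knockdown peak, from 91655441 to 91659204, covered 12.0% of the gene around a midpoint at 30.3% from the 5′ end, and control peaks covered 30.6%. With 159 tags, 2.69 times the mean (2.28 to 3.14) and a score of 253, it was the highest-scoring of the 11 peaks and ranked 3 by score among the 814 knockdown peaks without control overlap. These 814 made up 26.8% of all knockdown peaks. The control peak over the 3′ side of Son ran from 91669584 to 91687872 and had 9609 of its 18289 bp inside the gene. That whole peak lay within Donson, a replication fork gene that overlaps the 3′ side of Son and was covered over 0% in knockdown and 82.8% in control, so the tags in the shared stretch cannot be given to either gene. Gart, the purine synthesis gene that begins 851 bp upstream, was covered over 6.70% in knockdown and 80.4% in control.

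**Figure D2:**
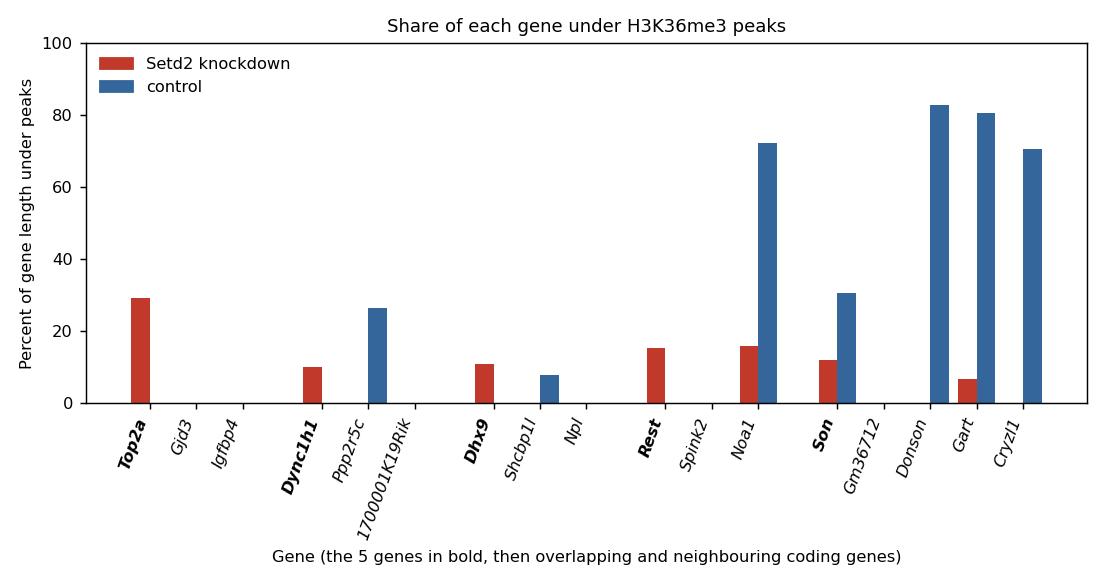
Percent of gene length under H3K36me3 peaks in Setd2 knockdown (red, left) and control (blue, right) for the 5 genes (bold) and the protein-coding genes that overlap or adjoin them, from 1 pooled peak list per condition. Knockdown bars of 9.93% to 29.1% stand without a control bar in Top2a, Dync1h1, Dhx9 and Rest, while Son has 12.0% in knockdown and 30.6% in control.

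The second comparison placed the 11 knockdown peaks within their own list. They were 1143 to 3764 bp long (median 2071 bp), against a median of 1401 bp for all knockdown peaks without control overlap and 1678 bp for those with it. Their densities ran from 2.17 to 3.40 times the mean (median 2.56), and 8 of 11 lay above the median of the whole knockdown list, 2.33. Scores ran from 50.8 to 253 (median 100), against medians of 66.5 without and 83.4 with control overlap. Density and score rose with peak length in the knockdown list. Medians were 2.29 times the mean and 69.3 up to 2 kb, and 2.52 and 133 at 2 to 4 kb. Among knockdown peaks of like length, the share sparser than each of the 11 ran from 22.1% (Dhx9) to 98.9% (Rest). The middle one of the 11, in Top2a, had 53.2%. Caller folds ran from 3.33 to 4.62 (median 4.10), near the medians of 4.11 without and 4.11 with overlap. These peaks led to the choice of the genes, so their position in the list is no independent result. The caller's empirical FDR ran against the score in these genes: the FDR was 0.98% for the peaks with the lowest scores, in Dhx9 and Top2a, and 3.77% for the highest-scoring one, in Son. All 11 peaks were also in the deposited BED file. Presence there sets no lower limit on score, since the knockdown peaks it left out had scores of 272 or more.

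**Figure D3:**
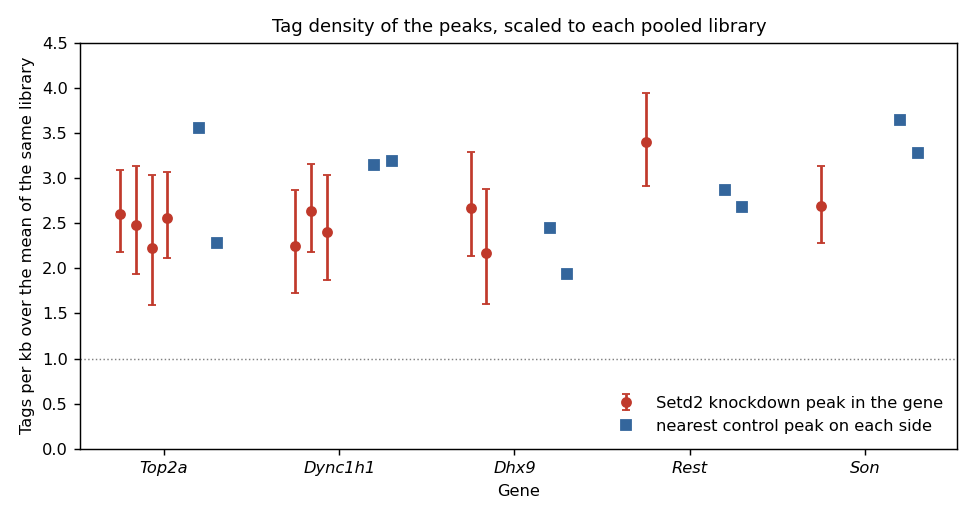
Tag density of the 11 knockdown peaks in the 5 genes (red circles, exact Poisson 95% intervals for counting error) and of the nearest control peak on each side of their peak-free interval (blue squares), in tags per kb over the mean of the same pooled library, with the mean at the dotted line. Knockdown peaks lie between 2.17 and 3.40 and flanking control peaks between 1.94 and 3.65, at different sites.

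By description, Top2a and Dync1h1 were among the genes with the most knockdown peaks, with no scaling for gene length. Of the 128 genes with knockdown peaks alone, 115 had 1 knockdown peak and 4 had 3 or more, namely Top2a and Ticrr with 4 each and Dync1h1 and Cct3 with 3 each. The median gene among the 128 had 1403 bp, or 3.38% of its length, under knockdown peaks, compared with 1762 bp and 5.84% in the 956 genes with peaks in both lists. Each of the 5 genes exceeded both lengths. They were chosen for such peaks, so neither their peak numbers nor these lengths are an independent result.

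The third comparison described the stretches without control peaks. Around the knockdown peaks of Dhx9, Top2a, Rest and Dync1h1 the control list was empty over 198.6, 170.3, 157.9 and 133.5 kb, in that order. Around that of Son it was empty over 25.9 kb. The median of the 30613 intervals between neighbouring control peaks was 5674 bp, and 7.0% of them were as long as that of Dhx9, 7.94% as that of Top2a, 8.41% as that of Rest, 9.55% as that of Dync1h1 and 27.2% as that of Son. Long control-free intervals were therefore not rare, and 700 of all intervals held a knockdown peak. An interval no longer than that of Top2a held 4 or more knockdown peaks in 4 of 28183 cases, of which Top2a was 1. Over all 30613 intervals, 8 held as many. Most intervals are short, and Top2a was chosen for its knockdown peaks, so its place among these cases is no independent result.

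The empty intervals sat differently on the genes. Dhx9 had its nearest control peaks 17356 bp on the lower and 149331 bp on the higher coordinate side, Top2a 18119 and 120970 bp, Dync1h1 45531 and 22431 bp, and Rest 135678 and 1326 bp. All knockdown peaks in the Top2a, Dync1h1, Dhx9 and Son intervals lay in the gene itself. The Rest interval held 2 more, 128451 and 131817 bp away and outside protein-coding genes, with 2.07 and 2.21 times the mean. Of the 10 control peaks that bounded the intervals, 2 shared bases with a knockdown peak, those at the far side of Rest and upstream of Son. Their densities ran from 1.94 times the mean, beyond Dhx9, to 3.65 times the mean, over Gart.

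The control scores varied with peak length, and the values are given here beside the empty control intervals. In the control list the median score was 71.2 for peaks up to 2 kb, 665 for peaks of 8 to 10 kb, 254 for 20 to 25 kb and 80.3 for peaks of 30 kb or more. Density and fold did not follow that course: the medians were 2.14, 3.03, 3.41 and 3.75 times the mean, with caller folds of 3.91, 5.72, 6.88 and 7.60 in the authors' deposited table. The longest control peak was 36280 bp, and 11 of the 15 above 30 kb had scores under 100, where the list ends at 50. The background implied by tags and score was 1.00 times the genome mean in the shortest peaks and 3.26 times in the longest class. The caller's folds are also ratios over local background, and they rose over these classes. The implied value therefore restates tags and score and is not a measured background. Control peaks of 18 to 20 kb had medians of 3.42 times the mean, a fold of 6.70 and a score of 331. Their median implied background was 2.29 times the mean. The control peak over Son and Donson, in that length class, was below these medians in density, fold and score and above in implied background. It was longer than all but 0.826% of control peaks and had 3.28 times the mean density, a fold of 5.32, a score of 131 and an implied background of 2.62 times the mean. The control peak upstream of Son, 11426 bp at 3.65 times the mean, had a score of 635.

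Gene lengths were 20.9 kb in Rest, 31.3 kb in Top2a, 31.4 kb in Son, 31.9 kb in Dhx9 and 65.6 kb in Dync1h1, the last being 1.81 times the longest control peak. The share of protein-coding genes without a control peak did not climb over this range of length, with 46.6% at 20 to 30 kb, 43.6% at 30 to 40 kb and 43.7% at 40 to 70 kb. Genes with a knockdown peak and without a control peak made up 0.434% (11 genes), 0.801% (12 genes) and 0.660% (16 genes) of the same classes. Of the genes with a knockdown peak, 7.75%, 12.9% and 9.88% had no control peak in these classes, so both of these shares were lowest in the shortest of the 3 classes, at small counts. The part of the fall in score with length in the empty control intervals of these genes was not tested, since the deposited lists hold no tag counts outside peaks. An empty interval therefore says that no peak was listed, not that the mark was absent.

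**Figure D4:**
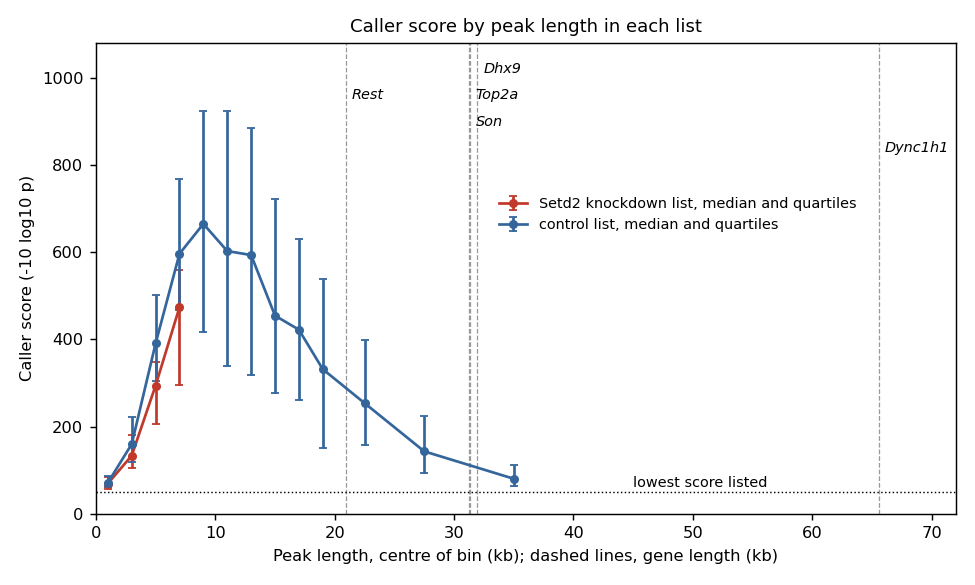
Median caller score with quartiles by peak length in the Setd2 knockdown (red) and control (blue) lists, for length classes of 10 or more peaks, with dashed lines at the lengths of the 5 genes and a dotted line at the lowest listed score. Control scores peak at a median of 665 for 8 to 10 kb and come down to 80.3 above 30 kb, near the lengths of Top2a, Son and Dhx9.

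The genes most like these by the same measure, knockdown-covered length with 0 control-covered bp over the 2 lists, were mostly of similar length. Genes with Gm or Rik symbols were left out of this ranking, while the share over all protein-coding genes given next includes them. Of the 10 highest, 8 were as long as the 5 genes (20.9 to 65.6 kb), a range that holds 27.2% of protein-coding genes. They included Zfp981, a zinc finger gene (5767 bp), Ticrr, which encodes a factor that starts DNA replication (5759 bp), Cct3, a chaperonin subunit gene (5265 bp), and Kmt2d, an H3K4 methyltransferase gene (3051 bp). Chd4, which encodes the remodeller of the NuRD complex, had 2963 bp, Atic, a purine synthesis gene, 2927 bp, and Hnrnpul1, a nuclear ribonucleoprotein gene, 2883 bp. Cfap97d2 had 2394 bp. The long genes Catspere2, for a subunit of a sperm ion channel, and Spata16, a spermatogenesis gene, had 2980 and 2546 bp, or 1.57% and 0.737% of their lengths. By comparison, Dhx9 and Rest had 3475 and 3216 bp.

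The relatives and partners of the 5 genes mostly had the opposite pattern, a control peak and no knockdown peak. Over all protein-coding genes the most frequent case was no peak in either list, in 12743 of 21887. Among the 9016 with a control peak, most likewise had no knockdown peak, and 956 had one. Each list below counts the chosen gene itself. Over all protein-coding genes 4.95% had a knockdown peak and 41.2% a control peak, and the median covered share was 0% in both lists. Of 12 topoisomerase and associated genes, 2 had a knockdown peak and 8 a control peak, with a median covered share of 0% in knockdown and 26.5% in control. Besides Top2a these included Top3b, which encodes a type I topoisomerase, at 16.0% in knockdown and 85.9% in control, while Blm, a helicase gene, was at 0% and 62.6%. Of 28 dynein, dynactin and regulator genes, 3 had a knockdown and 24 a control peak, with medians of 0% and 39.3%. Dync1li2, a light intermediate chain gene, was at 5.71% in knockdown and 74.7% in control, and Spdl1 and Nde1, both dynein regulator genes, were at 0% in knockdown and at 84.5% and 81.4% in control.

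Of 17 DExH helicase genes, 2 had a knockdown and 15 a control peak, with medians of 0% and 40.9%. Dhx30, a gene of mitochondrial ribosome assembly, was at 4.04% in knockdown and 76.7% in control, and Dhx8, a splicing helicase gene, and Dhx37, a ribosome biogenesis gene, were at 0% in knockdown and at 90.8% and 88.7% in control. Of 25 genes for REST and its corepressors, 2 had a knockdown and 21 a control peak, with medians of 0% and 36.7%. Gse1, a gene of the CoREST complex, was at 0.273% in knockdown and 13.9% in control, whereas Smarce1, a BAF subunit gene, and Sin3b, a histone deacetylase scaffold gene, were at 0% in knockdown and at 72.5% and 68.4% in control. In these 4 lists Top2a, Dync1h1, Dhx9 and Rest, which were chosen for it, were the only genes with peaks in knockdown alone. Of 31 nuclear speckle and SR protein genes, Son included, 7 had a knockdown and 29 a control peak, and all 7 were among the 29, with medians of 0% and 69.1%. Pnn, which encodes a speckle protein, was at 36.9% in knockdown and 86.1% in control and Srsf7, an SR splicing factor gene, at 24.8% and 75.9%. Clk1, a kinase gene of SR proteins, was at 16.6% in knockdown and 92.4% in control, and Ddx39b, an RNA helicase gene of mRNA export, at 0% and 92.0%.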

How the data were processed

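H3K36me3 ChIP-seq and input libraries of Setd2 knockdown and control mESC were used, grouped by treatment, antibody and replicate in the labels. Bowtie 1.1.2 and FastQC 0.11.5 were used with mm10, per the submitters' processing notes. Per the file headers, peaks were called with MACS 1.4.2 on merged replicates against merged inputs, with a p cutoff of 1e-05, 1 tag kept per position and an effective genome size of 1.87e+09. The deposited tables give for each peak a tag count, not normalized, the authors' score (minus 10 times log10 p), the authors' fold ratio over local background and the authors' FDR in percent. The BED files, also deposited, leave out peaks whose FDR exceeds 5%.

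Genes came from a RefSeq table of GRCm38.p6, and strand from its promoter table, which had no entry for Rest. A gene had a peak when a peak midpoint lay within it, the covered share is the percent of its length under peaks, and overlap means at least 1 bp. Counting intervals are exact Poisson 95% intervals and cover counting error only. The implied background is the Poisson mean over a peak at which its tags have the caller's p-value, an assumption about the caller. Overlap, coverage and background steps were tested on simulated data. For the background step the simulated scores came from the same Poisson formula, so this checked the calculation and not the assumption about the caller. The 5 genes, gene lists and the rule for named genes (neighbours, overlapping genes, the 2 most covered of each list in each condition and the 10 most like genes) were chosen with earlier results of these data known. Of 18 listed helicases 17 matched. Python 3.11.15, pandas 2.3.3 and scipy 1.17.1 were used.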

Additional observations from a re-analysis of the deposited data

How the results depend on the processing

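Of the 5 genes, 4 had a knockdown peak and no control peak, and this count was 4 with any overlap, with the BED files and with scores of 100 or more, 3 with gene spans extended by 5 kb, where Rest gained a control peak, and 5 against the 3040 top-scoring control peaks. With an FDR of 1% or less it was 2, Top2a and Dhx9. In knockdown the caller's FDR is higher for higher-scoring peaks, so that limit kept the 2 weakest of the 11 peaks. Over all genes the 128 became 145 with the BED files. The peaks those files left out had scores of at least 272 in knockdown and 1745 in control. With an FDR of 1% or less the 128 became 47, of which 43 were among the 128. With scores of 100 or more they became 37, of which 21 were, and against the top-scoring control peaks 605. The median control-free interval, 157.9 kb, was the same with the BED files and with control scores of 100 or more, but the interval of Dhx9 became 464.2 kb and that of Top2a 237.0 kb with control scores so limited. The knockdown-covered share of Top2a, 29.1%, was between 3.66% (FDR of 1% or less) and 22.0% (5 kb flanks) where it moved, and for Dync1h1, Rest and Son it was 0% with an FDR of 1% or less. The share of Dhx9, 10.9%, was 4.40% with an FDR of 1% or less and 6.49% with scores of 100 or more, and that of Dync1h1, 9.93%, was 2.87% with scores of 100 or more. No paired analysis was possible because the replicates were merged before peaks were called, so no replicate could be left out either. Depth limits the order of peaks within a gene, and no tags outside peaks were given.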
